A study of Homo sapiens with 24 samples.

Results

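Described here are the genes of the tricarboxylic acid (TCA) cycle and of pyruvate entry into it: 32 of the 58735 genes in the count table, listed by gene symbol with earlier results of these data known. All 32 passed the filter on low counts, which left 15956 genes for testing. They comprise 18 cycle enzymes, 6 genes of pyruvate entry, 4 genes that fill or drain the cycle and 4 genes of citrate use and dicarboxylate transport. RNA was sequenced from 24 libraries of SAS, an established human oral squamous cell carcinoma line, in 8 groups of 3. The cells carried Nrf2-WT or Nrf2-E79Q, a change in the stretch of the transcription factor NRF2 (gene NFE2L2) that its inhibitor KEAP1 binds. Each genotype was either untreated, given CB-839 (a glutaminase inhibitor) at 0.1 µM, irradiated with X-rays at 4 Gy, or given both, with the drug started 24 h before irradiation and RNA taken 24 h after it. The time of RNA for unirradiated cells, whether the drug stayed on, and how E79Q was introduced or whether the line is 1 clone are not stated in these sources, so genotype and cell line cannot be told apart. The series text describes the 12 irradiated libraries and the labels hold 24; whether all were prepared together is not stated, so radiation and preparation cannot be told apart. Nothing says that replicates came from separate cultures, so p-values measure the spread between these libraries, which may be technical.

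The TCA cycle oxidises acetyl-CoA in the mitochondrial matrix and supplies reducing power and biosynthetic carbon. Pyruvate enters the matrix through the mitochondrial pyruvate carrier and becomes acetyl-CoA through the pyruvate dehydrogenase complex, which is switched off by phosphorylation and on again by its phosphatase. Carbon is also added by pyruvate carboxylase and by glutamine, which is converted in steps to the cycle intermediate 2-oxoglutarate. Malic enzymes and mitochondrial phosphoenolpyruvate carboxykinase take carbon out, and citrate leaves the matrix to supply acetyl-CoA for lipid synthesis. NRF2 is known for driving antioxidant and detoxifying genes.

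Total counts ran from 14285084 to 23640197 per library, and mitochondrially encoded genes took between 1.93% and 3.55% of them. Correlations of log values between libraries of 1 group lay between 0.985 and 0.992. Over 5867 well-expressed genes, deviations from the group mean rose with gene GC content most in 4 libraries: E79Q radiation plus CB-839 replicate 2 (r = 0.771), WT radiation plus CB-839 replicate 1 (0.677), E79Q replicate 1 (0.589) and WT CB-839 replicate 3 (0.557). E79Q radiation plus CB-839 replicate 1 deviated furthest the other way (r = -0.785). E79Q cells had more NQO1 and AKR1C1, textbook NRF2 targets, than WT cells in all 4 treatments, with log2 differences in untreated cells of 0.73 (SE 0.066) and 2.89 (SE 0.10). The RNA of NFE2L2 itself was lower in E79Q, by log2 differences of -0.33 untreated and -0.26 after both treatments. Its differences with CB-839 (-0.11) and after radiation (-0.16) were not called. Squamous markers were present in every group, but the sum over 10 of them ran from 3521 to 3556 CPM (read counts scaled to equal library sizes) in untreated WT and from 2268 to 2403 CPM in untreated E79Q libraries. Markers of leukocytes, endothelium and fibroblasts summed to at most 8.0 CPM in a library, except in the untreated E79Q group, where fibroblast markers reached 49.1 CPM in 1 library. PTPRC, CD3E, LYZ, KDR and DCN were at or near 0 in all libraries. Other markers of these lists were present. Their highest values in any library came from different groups. COL1A1 reached 29.5, COL1A2 15.3 and COL3A1 3.94 CPM in untreated E79Q. VWF reached 4.20 CPM in irradiated WT without CB-839, and CD14 3.55 CPM in untreated WT.

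Of the 32 genes, those encoding ATP citrate lyase (ACLY) and mitochondrial malate dehydrogenase (MDH2) had the highest levels per length, with means over all libraries of 119 and 99.9 CPM per kb of gene length. Fumarase (FH) followed at 54.2 and the flavoprotein subunit of succinate dehydrogenase (SDHA) at 50.6 CPM per kb. The lowest was the mitochondrial malic enzyme ME3, at 0.546 CPM per kb. Most of the genes varied little between groups. The highest group mean exceeded the lowest by a median factor of 1.28 over the 32 genes, against 1.49 over all 15956 genes tested, and by more than 2-fold in 4 of 32 (12.5%, against 25.8% of all genes). These 4 were ME3 (4.37-fold), the pyruvate dehydrogenase phosphatase PDP1 (2.61-fold), mitochondrial phosphoenolpyruvate carboxykinase PCK2 (2.48-fold) and pyruvate carboxylase PC (2.14-fold). SUCLG2, SDHD, FH and MDH1 passed the test in none of the 19 comparisons made. In bulk RNA, fewer cells with a transcript and less of it per cell cannot be told apart.

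**Figure D1:**
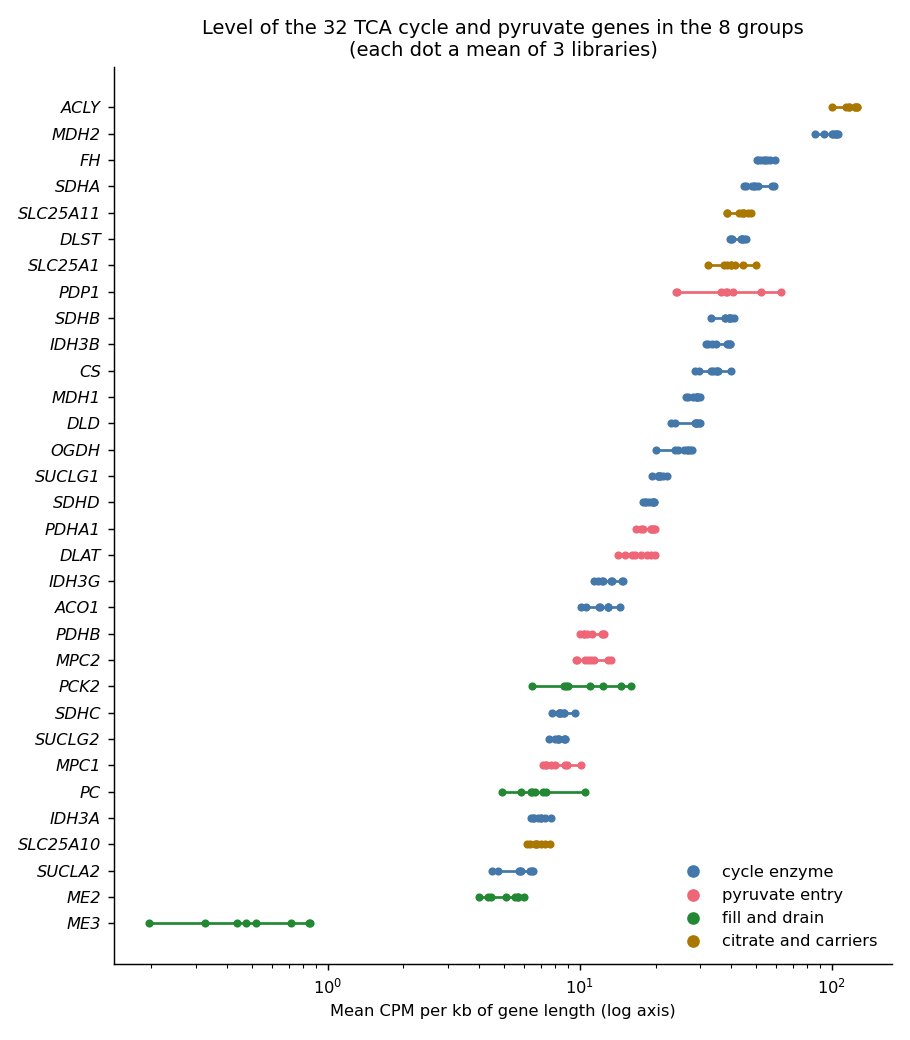
Mean CPM per kb of gene length (log axis) of each of the 32 genes, 1 dot for each of the 8 groups and a line from the lowest to the highest. ACLY and MDH2 lie at the top and ME3 at the bottom, and most lines are short beside the distance between genes.

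Calls below are edgeR quasi-likelihood tests over all 15956 genes, adjusted by the Benjamini-Hochberg method and called under 0.05. Below, vehicle means only without CB-839, for libraries whose titles say Control or RT. With CB-839 against vehicle, 6 of 32 genes were called in WT, 2 higher and 4 lower. Of all genes, 14.8% were called there, 6.35% higher and 8.44% lower. In E79Q the drug gave calls for 13 of the 32, 2 higher and 11 lower, against 19.8% of all genes (9.44% higher, 10.4% lower). After irradiation it gave 6 in WT, 4 higher and 2 lower, against 9.53% of all genes (4.99% higher, 4.53% lower). In irradiated E79Q it gave 15, 6 higher and 9 lower, against 26.0% of all genes (12.9% higher, 13.1% lower). As shares, 40.6% and 46.9% of the 32 genes were called in E79Q, and 18.8% in each WT comparison. Shares were not compared by a test, and the pairs share control groups with the other comparisons. The median log2 change over the 32 genes in unirradiated E79Q was -0.13, against 0.021 over all genes. In WT it was 0.0022, against -0.0070. In irradiated E79Q it was 0.045, against -0.017, and in irradiated WT -0.022, against -0.0155. Fitted on the 2 compared groups alone, irradiated E79Q gave 7 calls in place of 15, as all genes went from 26.0% to 9.81%. With GC and length trends removed, irradiated WT gave 11 in place of 6, as all genes went from 9.53% to 14.1%. DESeq2 split the WT calls into 4 higher and 4 lower, with 15.7% of all genes called.

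Radiation against none gave 7 calls in WT, 4 higher and 3 lower, against 17.9% of all genes (9.41% higher, 8.49% lower). In E79Q it gave 8, 1 higher and 7 lower, against 22.3% of all genes (12.2% higher, 10.1% lower). In WT with CB-839 it gave 13, 7 higher and 6 lower, against 23.7% (13.2% higher, 10.4% lower), and in E79Q with CB-839 12, 9 higher and 3 lower, against 29.2% (15.3% higher, 13.9% lower). Here 40.6% and 37.5% of the 32 genes were called.

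E79Q against WT gave 7 calls in untreated cells, 3 higher and 4 lower, against 19.7% of all genes (9.62% higher, 10.1% lower). With CB-839 it gave 10, 2 higher and 8 lower, against 15.0% (8.30% higher, 6.72% lower). After radiation it gave 3, 1 higher and 2 lower, against 9.64% (4.69% higher, 4.95% lower), and after both 3, again 1 higher and 2 lower, against 7.26% (4.40% higher, 2.86% lower). Shares of the 32 genes in untreated and irradiated genotype comparisons (21.9% and 9.38%) lay near those of all genes. With RLE scaling the untreated genotype split became 5 higher and 4 lower and the irradiated one 0 higher and 2 lower. Without the 4 libraries whose deviations rose with GC content, radiation gave 11 calls in WT and 13 in E79Q, and the genotype comparison after radiation gave 6, while all genes called rose to 26.9%, 27.1% and 16.3%. The calls for radiation in E79Q with CB-839 went from 12 to 20 without E79Q radiation plus CB-839 replicate 1 (35.7% of all genes), to 9 without its replicate 2 (19.5%) and to 3 with the compared groups alone (10.2%). The 8 calls for radiation in E79Q became 5 without E79Q replicate 1 or 3 or E79Q radiation replicate 1 or 2 (17.1% to 17.8% of all genes).

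**Figure D2:**
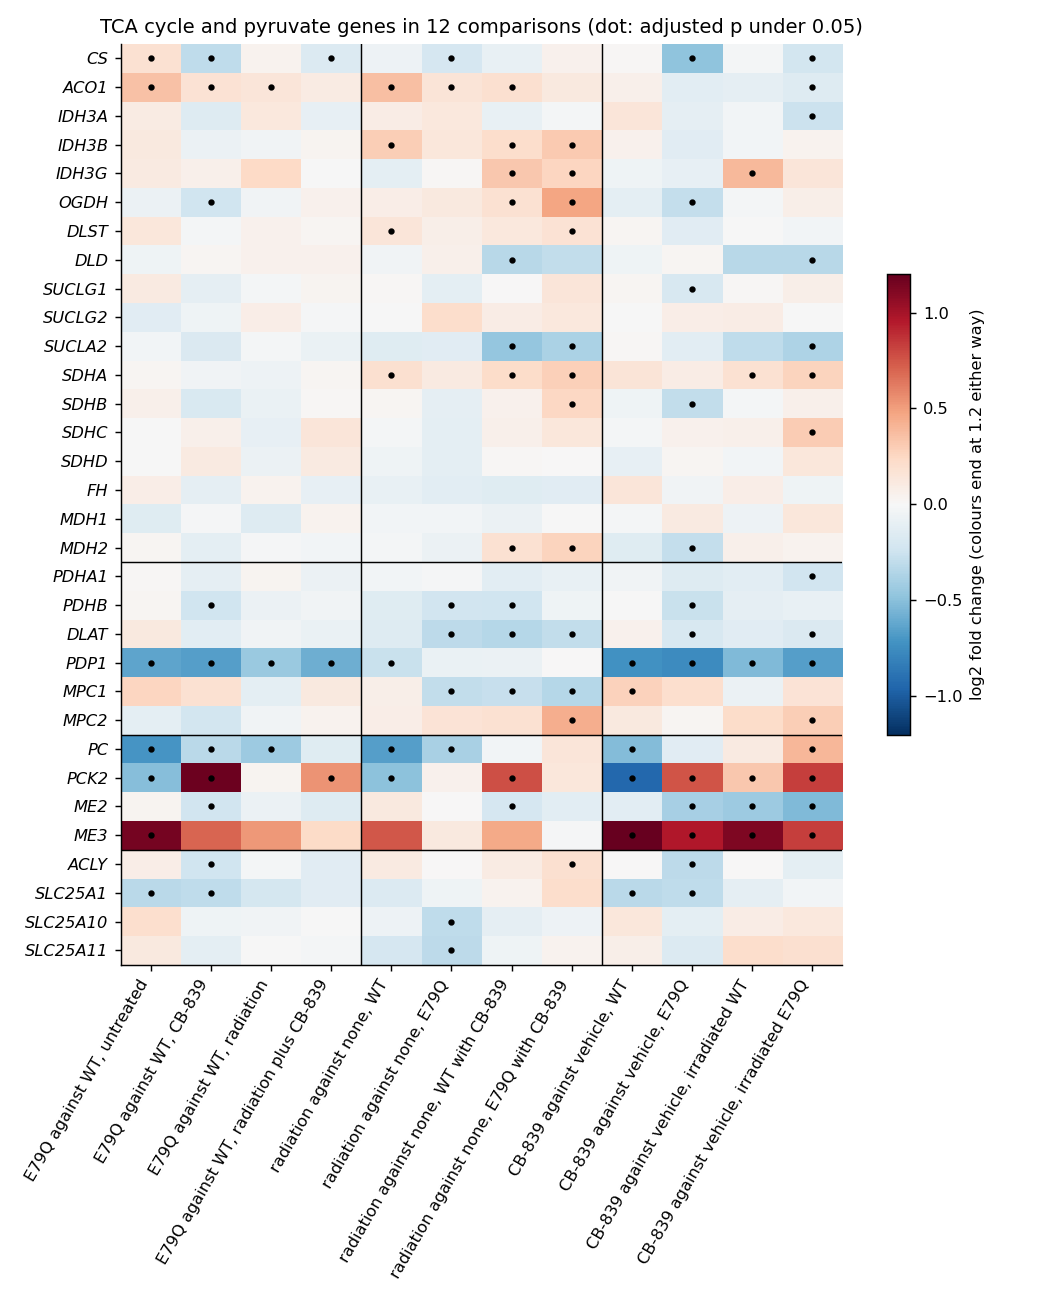
Log2 fold changes of the 32 genes (rows, grouped by role) in the 12 comparisons of pairs of groups (columns). Red is higher and blue lower, colours end at 1.2 either way, and a dot marks a call. PDP1 is blue in all 4 genotype columns and all 4 CB-839 columns, while PCK2 changes colour between the CB-839 columns.

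Among the genes of pyruvate entry, PDP1 had the largest changes. It encodes the catalytic subunit of the phosphatase that reactivates pyruvate dehydrogenase. Its level in untreated WT libraries was 353, 353 and 352 CPM, and with CB-839 it was 218, 210 and 212 CPM. In untreated E79Q libraries it was 219, 228 and 237 CPM, and with CB-839 135, 136 and 134 CPM. No library with CB-839 reached the level of any vehicle library of its genotype. Irradiated WT libraries held 290, 289 and 301 CPM without the drug and 199, 205 and 207 CPM with it, and the irradiated E79Q libraries held 216, 215 and 215 CPM without and 145, 123 and 139 CPM with it.

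PDP1 fell with CB-839 by 0.72 on the log2 scale in WT (SE 0.049, adjusted p = 1.57e-11) and by 0.75 in E79Q (SE 0.050, adjusted p = 1.41e-11). After irradiation it fell by 0.53 in WT (SE 0.049) and by 0.66 in E79Q (SE 0.050). The difference between genotypes in that response was -0.03 in unirradiated cells (95% interval -0.17 to 0.11) and did not pass the test (adjusted p = 0.839). PDP1 was lower in E79Q than in WT under all 4 treatments, by log2 differences of -0.63 untreated, -0.66 with CB-839, -0.45 after radiation and -0.59 after both. The squamous marker sum was also lower in E79Q, and its part in the genotype results was not tested. With radiation PDP1 fell in WT vehicle cells (log2 change -0.27, adjusted p = 0.000224), and the E79Q change of -0.08 was not called. Of the genes tested, those most like PDP1 over the 24 libraries were ELF3, SCD and TMEM135 (Pearson r from 0.965 to 0.967).

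Subunits of the pyruvate dehydrogenase complex ranged 1.19-fold (PDHA1), 1.24-fold (PDHB) and 1.40-fold (DLAT) between group means, against a median of 1.28 over all 32. PDHB, the beta subunit of its first enzyme, held 59.0 CPM on average in untreated E79Q and fell by 0.26 on the log2 scale with CB-839 (adjusted p = 0.013). DLAT, the acetyltransferase subunit, fell by 0.31 with radiation in E79Q, by 0.34 in WT with CB-839 and by 0.30 in E79Q with CB-839 (adjusted p = 0.000387, 0.000151 and 0.000736). In WT without the drug its change was not called. The decrease in E79Q with CB-839 lost its call with the compared groups alone (adjusted p = 0.0559). PDHA1, the alpha subunit that the phosphatase acts on, fell by 0.23 with CB-839 in irradiated E79Q cells (adjusted p = 0.0158), a call lost without E79Q radiation replicate 2 or with the compared groups alone (adjusted p up to 0.109). The PDHB call was lost without E79Q replicate 3 or E79Q CB-839 replicate 3 (adjusted p up to 0.0884). The DLAT decrease with CB-839 in irradiated E79Q cells (-0.18) lost its call without the 4 libraries named above (adjusted p = 0.147).

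The 2 carrier subunits MPC1 and MPC2, which together form the pyruvate carrier, had low levels, with means over all libraries of 12.6 and 28.5 CPM. MPC1 fell with radiation in E79Q (log2 change -0.30), in WT with CB-839 (-0.27) and in E79Q with CB-839 (-0.34), and MPC2 rose in that last comparison by 0.44 (SE 0.078, adjusted p = 0.000158). The MPC1 calls in cells with CB-839 ended once GC and length trends were removed (adjusted p = 0.135 in WT and 0.066 in E79Q), and the one in WT also without the 4 libraries (adjusted p = 0.0972). The call in E79Q vehicle cells was lost without E79Q replicate 2 or 3 or E79Q radiation replicate 1 or 2 (adjusted p up to 0.112). MPC1 also rose with CB-839 in WT (0.28, adjusted p = 0.044), a call lost when any of the 6 libraries was left out. MPC2 overlaps DCAF6 on the opposite strand, and with the strand setting of the counting unknown, reads of overlapping genes cannot be told apart. In all, 20 of the 32 genes overlap some annotated gene (19 on the opposite strand, 11 a gene that was tested).

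Among the genes that fill and drain the cycle, PCK2 moved in opposite directions in the 2 genotypes with CB-839 in unirradiated cells. It makes phosphoenolpyruvate from oxaloacetate in the mitochondrion. In WT, untreated libraries held 53.1, 53.5 and 48.9 CPM and those with CB-839 held 26.2, 28.0 and 26.8 CPM. In E79Q, untreated libraries held 36.6, 35.6 and 36.6 CPM and those with CB-839 held 66.8, 52.0 and 64.8 CPM. The drug libraries lay below all untreated ones in WT and above all of them in E79Q.

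PCK2 fell with CB-839 in WT by 0.94 on the log2 scale (SE 0.088, adjusted p = 8.83e-09) and rose 1.69-fold in E79Q (log2 change 0.75, SE 0.086, adjusted p = 2.8e-07). The difference between these responses was 1.69 on the log2 scale (SE 0.12, adjusted p = 1.31e-10), the largest difference term among the 32 genes. After irradiation PCK2 held 36.4, 38.7 and 35.7 CPM in WT and 49.6, 44.8 and 44.2 CPM with the drug added. In irradiated E79Q cells it held 37.4, 39.2 and 36.5 CPM, and 58.6, 74.9 and 67.5 CPM with the drug. Here PCK2 rose with CB-839 in both genotypes, by 0.32 in WT (adjusted p = 0.0167) and by 0.83 in E79Q (adjusted p = 4.6e-08). The genotype difference was then 0.51 (adjusted p = 0.0224), not called when the compared groups were fitted alone (adjusted p = 0.0763). It was also lost without WT radiation replicate 2, WT radiation plus CB-839 replicate 2 or 3, E79Q radiation replicate 1 or 3, or E79Q radiation plus CB-839 replicate 3 (adjusted p up to 0.0757). The WT rise was lost without WT radiation replicate 1, WT radiation replicate 3 or WT radiation plus CB-839 replicate 1 (adjusted p up to 0.113).

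PCK2 also changed with radiation in WT. It fell by 0.49 in WT vehicle cells (adjusted p = 0.000137) and rose by 0.78 in WT cells with CB-839 (adjusted p = 2.12e-07). In E79Q cells the changes of 0.06 and 0.13 with radiation were not called. The radiation difference in the drug response of WT was 1.26 (SE 0.12, adjusted p = 8.01e-08). E79Q against WT was -0.51 untreated, 1.18 with CB-839, 0.03 after radiation (not called) and 0.54 after both. The genes most like PCK2 over the 24 libraries were WARS, TRIB3 and PSAT1 (r = 0.976, 0.964 and 0.963), a description over libraries that share the same groups.

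PC adds carbon to the cycle by making oxaloacetate from pyruvate. The 3 starts that RefSeq (GRCh38.p14) gives for it, on the minus strand of chromosome 11, are shown because PC differed between genotypes in 3 treatments and its upstream windows hold no annotated untranslated base. Capitals mark GC boxes (GGGCGG or CCGCCC on the other strand) and CCAAT boxes (CCAAT or ATTGG). These letters occur in the same 250-base window of 42.6% and 32% of 35116 RefSeq promoters, so a match is only a description.
chr11:66958384-66958633 (GC 67.6%): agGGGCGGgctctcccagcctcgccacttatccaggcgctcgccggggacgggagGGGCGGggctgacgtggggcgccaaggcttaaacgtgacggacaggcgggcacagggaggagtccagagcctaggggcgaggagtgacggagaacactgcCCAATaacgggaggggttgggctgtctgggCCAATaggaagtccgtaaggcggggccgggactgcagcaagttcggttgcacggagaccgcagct
chr11:66907954-66908203 (GC 56.4%): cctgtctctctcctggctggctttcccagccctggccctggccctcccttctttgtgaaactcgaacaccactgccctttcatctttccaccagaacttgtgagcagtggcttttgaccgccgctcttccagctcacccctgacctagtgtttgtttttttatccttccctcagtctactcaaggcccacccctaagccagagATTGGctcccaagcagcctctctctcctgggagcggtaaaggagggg
chr11:66906035-66906284 (GC 50.4%): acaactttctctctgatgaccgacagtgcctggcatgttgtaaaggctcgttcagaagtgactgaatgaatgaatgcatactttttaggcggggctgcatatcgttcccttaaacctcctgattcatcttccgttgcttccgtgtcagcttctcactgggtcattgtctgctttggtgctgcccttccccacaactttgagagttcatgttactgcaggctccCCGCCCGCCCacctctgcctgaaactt
The window of the outermost start holds 2 GC boxes and 2 CCAAT boxes and 21 CpG, the middle one 1 CCAAT box and 4 CpG, and the innermost 2 GC boxes and 8 CpG. Of the 32 genes, 29 matched the promoter table, with 38 starts. Of these 38 windows, 6 hold no annotated untranslated base. TGATGNAA, a form of the ATF4 and C/EBP composite element, was found on either strand in 1 of the 29 genes and in 3.14% of all promoters. The match is in SLC25A11, as TTCCATCA, between 71 and 64 bases before the RefSeq start. All 250 bases of that window are annotated as untranslated, so the match lies within annotated transcribed sequence. The antioxidant response core TGACNNNGC was found in 3 (IDH3G as TGACGTGGC, MPC1 as GCCCTGTCA and SLC25A1 as TGACGCGGC) and in 10.9% of all promoters. No match says only that these letters are not in these 250 bases.

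PC held 62.8, 64.9 and 59.4 CPM in untreated WT libraries, the highest group. With CB-839 these became 44.5, 40.9 and 45.1 CPM, with radiation 41.0, 38.8 and 38.9 CPM, and with both 46.3, 40.4 and 40.9 CPM. E79Q libraries held 40.6, 36.3 and 37.4 CPM untreated, 33.3, 34.6 and 36.1 CPM with CB-839, 30.3, 30.4 and 26.7 CPM after radiation, and 36.0, 41.4 and 37.6 CPM after both. Untreated WT lies apart from all 7 other groups.

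PC was lower in E79Q than in WT without treatment (log2 difference -0.71, SE 0.073, adjusted p = 2.68e-08), with CB-839 (-0.33, adjusted p = 0.00266) and after radiation (-0.44, adjusted p = 0.000128). After both treatments the difference was not called. With CB-839, PC fell by 0.52 in WT (adjusted p = 7.03e-06), and with radiation it fell by 0.66 in WT and by 0.39 in E79Q. In irradiated E79Q cells PC rose with CB-839 by 0.40 (adjusted p = 0.000294), and the radiation differences in the drug response were 0.63 in WT and 0.53 in E79Q (adjusted p = 0.000313 and 0.00295). LRFN4 lies on the opposite strand within PC and had log2 changes of 0.29 between untreated genotypes and -0.23 and -0.42 with radiation in WT and E79Q, all called. With CB-839 it changed by -0.29 in E79Q, 0.24 in irradiated WT and 0.21 in irradiated E79Q (adjusted p = 0.00644, 0.0457 and 0.0388). The untreated genotype change had the other sign from that of PC, while the changes with radiation and the drug change in irradiated E79Q had the same sign. Whether reads of 1 gene entered the other was not tested.

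Mitochondrial NAD-dependent malic enzyme ME2, which turns malate into pyruvate, fell with CB-839 in 3 of 4 pairs. In E79Q libraries it was 88.4, 95 and 93.7 CPM without and 72.3, 70.0 and 68.6 CPM with the drug, and after irradiation 95.3, 92.4 and 90.7 CPM without and 68.6, 59.2 and 65.7 CPM with it. The log2 changes were -0.39 (adjusted p = 1.89e-05) and -0.53 (adjusted p = 2.65e-07). In irradiated WT the change was -0.44 (adjusted p = 1.59e-05), and in unirradiated WT -0.12, not called. The genotype difference in unirradiated cells was -0.27 (adjusted p = 0.0284) and was lost when any of 8 of the 12 libraries was left out or no filter was used. ME2 was also lower with radiation in WT with CB-839 (-0.20), a call that ended once GC and length trends were removed (-0.069, adjusted p = 0.467), as did the radiation difference in the drug response of WT (-0.31, then -0.15, adjusted p = 0.343).

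ME3, the NADP-dependent mitochondrial malic enzyme, was the rarest of the genes. Untreated WT libraries held 0.769, 0.745 and 0.738 CPM, and with CB-839 they held 3.10, 1.54 and 1.35 CPM. ME3 rose with CB-839 in every pair, by log2 changes of 1.41 in WT, 0.96 in E79Q, 1.12 in irradiated WT and 0.83 in irradiated E79Q (SE from 0.24 to 0.30, adjusted p from 0.00147 to 0.0113). The call in irradiated E79Q was lost without E79Q radiation replicate 2 (adjusted p = 0.0558). Untreated E79Q also exceeded untreated WT (1.15, adjusted p = 0.00782), and no difference between genotypes or radiation states in the drug response was called. The plot of 6 genes by library shows these levels.

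**Figure D3:**
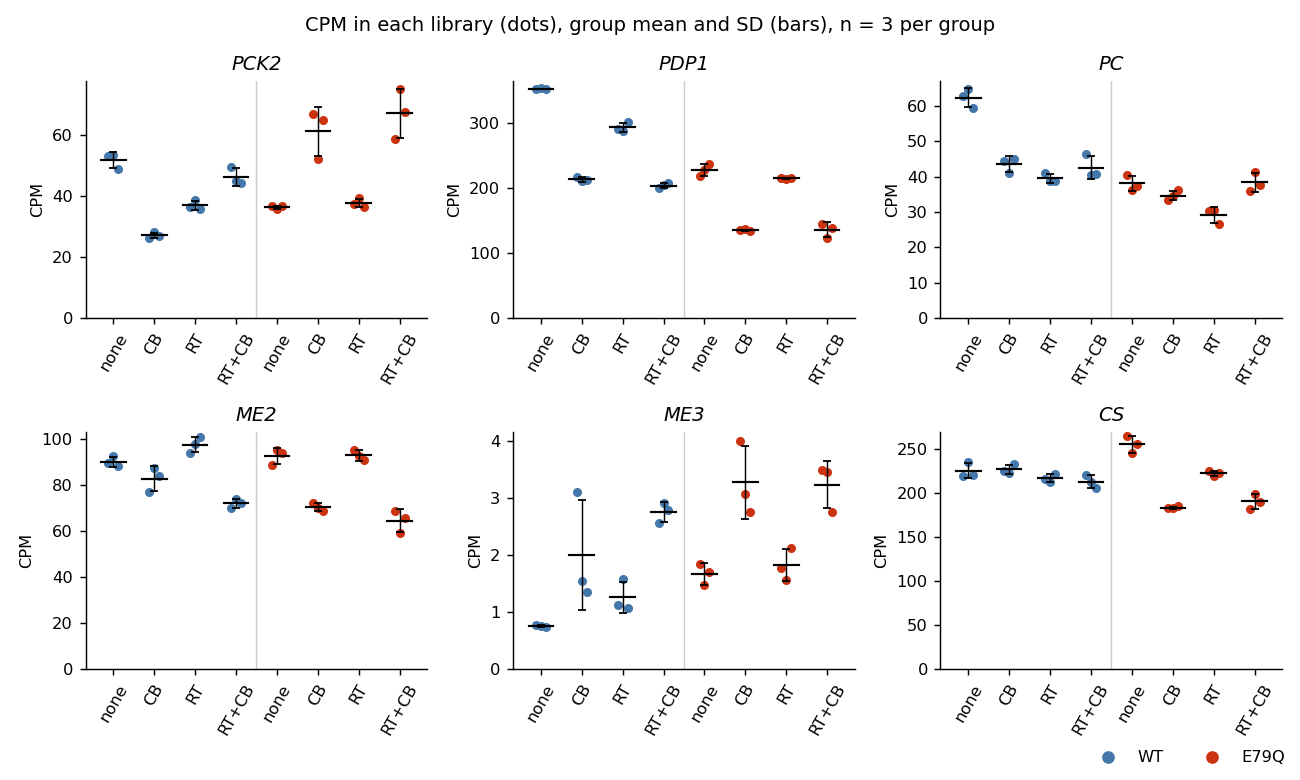
CPM of PCK2, PDP1, PC, ME2, ME3 and CS in each library (dots, WT blue and E79Q red), with the group mean and SD, n = 3. PCK2 falls with CB-839 in unirradiated WT and rises in E79Q, and PDP1 falls with the drug in all 4 pairs.

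Citrate synthase CS, the entry enzyme of the cycle, was among the cycle enzymes that fell with CB-839 in unirradiated E79Q. Untreated E79Q libraries held 265, 246 and 256 CPM, and with the drug 182, 183 and 185 CPM. WT libraries held 220, 235 and 221 CPM untreated and 225, 223 and 233 CPM with the drug. CS fell in E79Q by 0.48 (SE 0.047, adjusted p = 2.09e-08), and the WT change was not called, with a genotype difference of -0.49 (SE 0.066, adjusted p = 7.17e-06). After irradiation CS fell in E79Q by 0.22 (adjusted p = 0.000814), which was less than without it by 0.25 (adjusted p = 0.015). Both calls were lost with the compared groups alone (adjusted p = 0.0685 and 0.0508), and the latter also without E79Q replicate 1 (adjusted p = 0.0525). CS was higher in E79Q than in WT in untreated cells (0.18) and lower with CB-839 (-0.31).

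Of the 18 cycle enzymes, 5 fell and none rose with CB-839 in unirradiated E79Q: CS, OGDH, SUCLG1, SDHB and MDH2. Of all genes, 10.4% fell and 9.44% rose there. OGDH, the first component of the 2-oxoglutarate dehydrogenase complex, and MDH2 both changed by -0.29 (adjusted p = 0.00119 and 0.00127), and SDHB, the iron-sulfur subunit of succinate dehydrogenase, by -0.30. In unirradiated WT edgeR called 0 of the 18, with 3 at an unadjusted p under 0.05, while DESeq2 called 2 and limma-voom 0, and edgeR called 14.8% of all genes. In E79Q the drug response of 6 cycle enzymes was less negative or more positive in irradiated than in unirradiated cells, among them OGDH (difference 0.36), SDHB (0.36) and MDH2 (0.34), and 28.1% of the 32 genes were called there, all 9 higher, against 14.5% of all genes (7.83% higher, 6.66% lower). Fitted on these groups alone, 3 of the 32 genes and 5.26% of all genes were called. Leaving out E79Q replicate 1 gave 3 calls (5.20% of all genes) and leaving out E79Q radiation plus CB-839 replicate 1 gave 15 (26.9%), and the MDH2 difference was lost without the former (adjusted p = 0.0561). SUCLG1, SDHC, ACLY and SLC25A11 lost this call without the 4 libraries (adjusted p = 0.0567, 0.0622, 0.115 and 0.0536). The SUCLG1 decrease in unirradiated E79Q was lost without replicate 1 or 3 of either group (adjusted p up to 0.0729). SDHC, a membrane anchor of succinate dehydrogenase, rose with the drug in irradiated E79Q by 0.31 (adjusted p = 0.000389). The catalytic isocitrate dehydrogenase subunit IDH3A fell there by 0.26, a call lost without the 4 libraries (adjusted p = 0.0714). In irradiated WT, IDH3G (a regulatory subunit of NAD-dependent isocitrate dehydrogenase) and SDHA rose with the drug by 0.39 and 0.18, and the SDHA call was lost without any 1 of the 3 WT radiation libraries or WT radiation plus CB-839 replicate 1 (adjusted p up to 0.158).

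SDHA, a subunit of both the cycle and the respiratory chain, rose with radiation in WT (0.19), in WT with CB-839 (0.22) and in E79Q with CB-839 (0.29, adjusted p = 0.000249). Untreated WT libraries held 382, 384 and 361 CPM of SDHA, and irradiated WT libraries 438, 435 and 410 CPM. E79Q libraries with CB-839 held 420, 384 and 411 CPM, and those with radiation plus CB-839 held 459, 536 and 484 CPM. The call in WT vehicle cells was lost without WT replicate 3 or WT radiation replicate 1 or 2 (adjusted p up to 0.0755). Related pseudogenes took 3.81% as many reads as SDHA. OGDH rose with radiation in E79Q with CB-839 by 0.48, the largest rise of the 32 genes there. Its libraries held 100, 106 and 108 CPM with the drug alone and 134, 162 and 142 CPM with both. ACO1, the cytosolic aconitase that also binds iron-responsive RNA elements, held 78.0, 76.5 and 75.5 CPM in untreated WT and 96.9, 101 and 96.6 CPM in untreated E79Q (difference 0.36, adjusted p = 4.37e-06). It rose with radiation in WT by 0.36 (adjusted p = 4.34e-06). IDH3B, another isocitrate dehydrogenase subunit, rose with radiation in WT (0.30) and in both genotypes with CB-839 (0.21 and 0.31). The call in WT with CB-839 was lost without WT CB-839 replicate 2 or WT radiation plus CB-839 replicate 1 (adjusted p up to 0.0874). The one in E79Q with CB-839 was lost with the compared groups alone (adjusted p = 0.0566). DLST, the succinyltransferase of the 2-oxoglutarate dehydrogenase complex, rose with radiation by 0.15 in WT and by 0.17 in E79Q with CB-839, and the latter call ended once GC and length trends were removed (adjusted p = 0.0725), while the former was lost without any WT library or WT radiation replicate 2 or 3 (adjusted p up to 0.151).

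SUCLA2, a subunit of succinyl-CoA synthetase, and DLD, which the dehydrogenase complexes share, both fell with radiation in WT with CB-839 (-0.46 and -0.33). The DLD call was lost with the replicate number as a block (adjusted p = 0.0569), and without WT CB-839 replicate 1 or 2 or WT radiation plus CB-839 replicate 1 (adjusted p up to 0.252). Both are low in GC content (41% and 39.3%; DLD at percentile 12.7 of tested genes) and spread widely in irradiated E79Q cells with CB-839, where DLD held 155, 89.7 and 135 CPM. DLD and SUCLA2 fell there against vehicle by 0.33 and 0.37, and both calls ended without the 4 libraries (adjusted p = 0.0949 and 0.0744).

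In citrate use, ACLY, which makes cytosolic acetyl-CoA from citrate, fell with CB-839 in unirradiated E79Q from 669, 632 and 636 CPM to 534, 519 and 510 CPM, a log2 change of -0.31 (adjusted p = 2.4e-05). The WT change was not called, and the genotype difference was -0.32 (adjusted p = 0.00158). The citrate carrier SLC25A1 held 102, 108 and 104 CPM in untreated WT and 84.8, 81.1 and 84.8 CPM in untreated E79Q. It fell with CB-839 in WT by 0.32 and in E79Q by 0.30. These drug calls were lost without WT CB-839 replicate 2 (adjusted p = 0.0541) and without E79Q CB-839 replicate 2 or 3 (up to 0.0747). SLC25A11, the 2-oxoglutarate carrier, and SLC25A10, the dicarboxylate carrier, fell with radiation in E79Q by 0.32 and 0.30, and the SLC25A10 call was lost without replicate 1 or 2 of either group (adjusted p up to 0.128).

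Averaged over the 4 drug pairs, CB-839 was called for 19 of the 32 genes (6 higher, 13 lower), against 29.1% of all genes (14.2% higher, 14.9% lower). The averages furthest from 0 were ME3 (1.08), PDP1 (-0.67), ME2 (-0.37) and PCK2 (0.24), and the PCK2 average joins opposite changes. The genotype difference in the drug response was called for 5 genes in unirradiated cells (PC and PCK2 higher, CS, ME2 and ACLY lower; that of PC was lost without WT CB-839 replicate 2, adjusted p = 0.0513), against 14.3% of all genes (7.46% higher, 6.83% lower). After irradiation it was called for PCK2 alone, higher, against 1.91% of all genes (1.26% higher, 0.652% lower). Scaling by RLE gave 2 higher and 5 lower, and DESeq2 2 higher and 7 lower, in the unirradiated cells. Genotype differences in the radiation response were called for PCK2 alone, with vehicle (0.54) against 1.26% of all genes (0.815% higher, 0.445% lower) and with CB-839 (-0.64) against 1.08% (0.363% higher, 0.714% lower). The former was lost without WT replicate 1 or 2, WT radiation replicate 1 or 3, E79Q replicate 2 or E79Q radiation replicate 2 (adjusted p up to 0.0663), and the latter with the compared groups alone (adjusted p = 0.102). In WT the radiation difference in the drug response was called for IDH3G, PC and PCK2 (higher) and ME2 (lower), with the IDH3G call lost when any of 8 of the 12 libraries was left out (adjusted p up to 0.116), against 4.02% of all genes (2.75% higher, 1.27% lower).

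**Figure D4:**
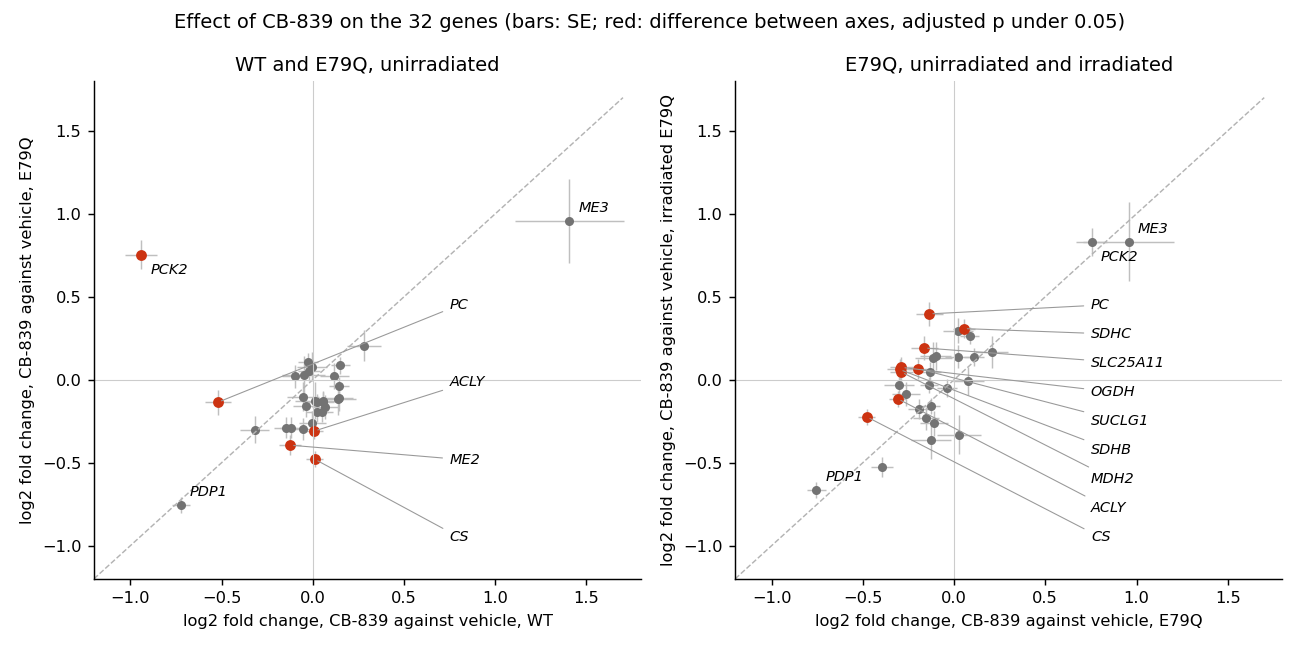
Log2 effect of CB-839 on each of the 32 genes, WT against E79Q without radiation (left) and E79Q without against with radiation (right), with SE bars. Red marks a called difference between the axes, the dashed line is equality, and PCK2 lies far from it on the left with -0.94 and 0.75.

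In neighbouring pathways, 16 of 18 glutamine entry genes were tested. GPT2 and PSAT1, aminotransferases, and the glutamine transporter SLC1A5 were, like PCK2, lower with CB-839 in unirradiated WT (-0.85, -0.76 and -0.48) and higher in E79Q (0.62, 0.66 and 0.40). With CB-839, 2 of the 16 were called higher and 5 lower in unirradiated WT, and 4 higher and 3 lower in unirradiated E79Q. After irradiation these became 4 higher and 1 lower in WT, and 4 higher and 2 lower in E79Q. For these 4 drug comparisons the shares of all genes called were, in the same order, 14.8%, 19.8%, 9.53% and 26.0%. Of 18 tested among 20 other TCA and pyruvate genes, 1 rose and 6 fell with CB-839 in unirradiated E79Q, and 5 rose and 5 fell in irradiated E79Q. In WT, 1 rose and 3 fell without irradiation, and 3 fell after it. LDHA, lactate dehydrogenase A, fell in all 4 drug pairs (-0.24, -0.58, -0.27 and -0.43). ME1, cytosolic malic enzyme and a known NRF2 target, was higher in E79Q after radiation (0.44) and untreated (0.18). IDH1, of the same list, had lower means in E79Q than in WT under all 4 treatments. It held 83.9 against 158 CPM untreated and 56.0 against 89.2 CPM with CB-839. After radiation these were 55.2 against 101 CPM, and after both 47.3 against 62.5 CPM. FASN and ACACA, which use the acetyl-CoA made by ACLY, were lower in E79Q under all 4 treatments (untreated -0.30 and -0.29). Of 13 cofactor and assembly genes, 2 rose with CB-839 in unirradiated WT, 2 fell in unirradiated E79Q, and 1 rose and 1 fell in each irradiated genotype. That is 15.4% in each comparison, near or below the share of all genes except in irradiated WT, where all genes stood at 9.53%.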

How the data were processed

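From total RNA of 24 libraries, the authors deposited unnormalized counts of reads for each Ensembl gene, and a gene length column in base pairs, which holds other values. STAR, HTSeq and GRCh38 are named per the submitters' processing notes. Their roles and versions, the annotation release and the strand setting were not given in the sources used here. The last 3 columns carry a shortened name and were matched through the sample titles.

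Tests used edgeR 4.0.16 in R 4.3.3: filterByExpr over the 8 groups, TMM scaling, 1 mean per group, 16 residual degrees of freedom, quasi-likelihood tests and Benjamini-Hochberg adjustment over 15956 genes at 0.05. CPM use the TMM-scaled library sizes. Intervals cover the spread between libraries. Alternatives were RLE scaling, DESeq2 1.42.0, limma-voom (limma 3.58.1), other filters, the compared groups alone, a replicate block, GC and length trends removed, and libraries left out. All 32 genes could be named, and some of those with large called changes were given by library. For likeness, the 3 genes with the highest Pearson r of log CPM were named. Members and lists were chosen with earlier results of these data known. Protein sequences were not used here.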

Additional observations from a re-analysis of the deposited data

Results flagged for a closer look

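Each of the 21 results below is a difference between 2 groups in their response to the same treatment that passed the edgeR test of the difference itself, on the log2 scale. They concern 12 of the 32 genes, over 6 such comparisons.

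For the response to CB-839 in unirradiated cells, E79Q minus WT was 1.69 for PCK2, 0.38 for PC, -0.27 for ME2, -0.32 for ACLY and -0.49 for CS. After irradiation it was 0.51 for PCK2. For the response to radiation, E79Q minus WT was 0.54 for PCK2 with vehicle and -0.64 with CB-839. The shares of all genes called for these differences were, in the same order, 14.3%, 1.91%, 1.26% and 1.08%.

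For the response to CB-839 in WT, irradiated minus unirradiated was 1.26 for PCK2, 0.63 for PC, 0.44 for IDH3G and -0.31 for ME2. In E79Q the same difference was 0.53 for PC, 0.36 for OGDH, 0.36 for SDHB, 0.36 for SLC25A11, 0.34 for MDH2, 0.26 for SUCLG1, 0.26 for SDHC, 0.25 for CS and 0.19 for ACLY. All 9 differences in E79Q are positive, but they rest on the same groups of libraries and are not separate results. Of all genes, 4.02% were called for this difference in WT and 14.5% in E79Q (7.83% higher, 6.66% lower). In E79Q, leaving out E79Q replicate 1 gave 3 calls in place of 9 (5.20% of all genes). Leaving out E79Q radiation plus CB-839 replicate 1 gave 15 (26.9%).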

How the results depend on the processing

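Of 143 calls of a gene in a comparison, 76 held under every setting tried and no sign reversed. Calls kept were 141 with RLE scaling, 142 with DESeq2, 143 with limma-voom, 122 with no filter, 143 with 1 CPM in 12 libraries, 129 without the 4 libraries, 128 with GC and length trends removed and 96 of 124 with the compared groups alone. The cause of each shift was not tested.

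Counts of genes called moved by over 1.5 times as follows, each with the share of all genes called under the same setting. With GC and length trends removed, the genotype comparisons gave 13 untreated (27.2%), 6 after radiation (14.3%) and 5 after both (12.4%), radiation in E79Q gave 13 (29.8%), CB-839 in irradiated WT gave 11 (14.1%), and the genotype difference gave 14 (CB-839 response, unirradiated; 22.3%), 3 (irradiated; 5.08%) and 2 (radiation response with CB-839; 1.92%). With the compared groups alone, the genotype comparison after radiation gave 6 (19.0%), radiation gave 12 in WT (27.3%) and 3 in E79Q with CB-839 (10.2%), CB-839 in irradiated E79Q gave 7 (9.81%), the genotype difference in the CB-839 response gave 8 unirradiated (18.7%) and 0 irradiated (0.821%), that in the radiation response gave 2 with vehicle (3.89%) and 0 with CB-839 (0.257%), and the radiation difference in the CB-839 response of E79Q gave 3 (5.26%). Without the 4 libraries, the genotype comparison after radiation gave 6 (16.3%), radiation gave 11 in WT (26.9%) and 13 in E79Q (27.1%), the genotype difference in the CB-839 response gave 8 unirradiated (18.5%) and 3 irradiated (4.55%), and that in the radiation response with vehicle gave 2 (3.38%). DESeq2 gave 9 (15.9%) and no filter 3 (5.91% of 34983 genes) for the genotype difference in the CB-839 response of unirradiated cells. Each of these shares moved the same way as its count of the 32 genes.

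Leaving out 1 library at a time gave, for E79Q against WT, 7 to 8 untreated, 7 to 12 with CB-839, 2 after radiation in every case and 2 to 5 after both. For radiation it gave 5 to 6 in WT, 5 to 6 in E79Q, 8 to 13 in WT with CB-839 and 9 to 20 in E79Q with CB-839. For CB-839 it gave 4 to 5 in WT, 10 to 14 in E79Q, 4 to 8 in irradiated WT, 11 to 16 in irradiated E79Q and 16 to 20 for the average. For the genotype difference in the CB-839 response it gave 3 to 6 unirradiated and 0 to 3 irradiated, and in the radiation response 0 to 1 with vehicle and 1 to 2 with CB-839. The radiation difference in the CB-839 response gave 2 to 4 in WT and 3 to 15 in E79Q.

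With the replicate number as a block, 136 of the 143 calls held, and the radiation difference in the CB-839 response of E79Q gave 6 calls. The labels do not say what libraries of the same number share. Over well-expressed genes 24 of 84 same-number pairs of libraries had deviations that correlated above 0.1. The median of these pairs was 0.016, with values from -0.851 to 0.611. A pair of different numbers, E79Q radiation plus CB-839 replicate 2 and WT radiation plus CB-839 replicate 1, reached 0.871. Over all genes 4 of 24 libraries correlated best with their own number.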
